A study of Mus musculus with 3 samples.

Results

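The 7 genes described are the mouse platelet-derived growth factor (PDGF) family as it is listed in the deposited gene tables: the ligand chains Pdgfa, Pdgfb, Pdgfc and Pdgfd, the receptor chains Pdgfra and Pdgfrb, and the receptor-like gene Pdgfrl. They were chosen by symbol, and all 7 were found among 27998 annotated genes. Their transcripts were followed in 3 droplet single-cell RNA sequencing libraries of dissociated C57BL/6 dorsal skin, 1 library for each age (neonatal, 3 weeks and 2 months), in a series on IL-1 and WNT signalling in the dermal adipocyte lineage. Skin was minced and digested with collagenase D and DNase, no allele or agent is given in the labels, and the number of animals behind each library is not given either. Each age is therefore 1 sample, and differences between ages carry counting error but no replicate error and no p-value.

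PDGF ligands are secreted dimers that bind receptor tyrosine kinases on neighbouring cells. PDGF-A binds the alpha receptor, PDGF-B binds both receptors, and PDGF-C and PDGF-D are latent until proteases remove an N-terminal CUB domain, after which PDGF-C acts mainly through the alpha and PDGF-D mainly through the beta receptor. In skin, epithelial PDGF-A is known for signalling to dermal and follicle mesenchyme, the alpha receptor marks dermal fibroblasts and adipocyte progenitors, and endothelial PDGF-B is known for recruiting mural cells through the beta receptor. Pdgfrl encodes a secreted protein that resembles the receptor's outer part and has no kinase domain.

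In the GRCm38 annotation (GENCODE vM21), Pdgfa lies on chromosome 5 at 138976014-138997370 on the minus strand and Pdgfra on the same chromosome at 75152292-75198215 on the plus strand. Pdgfb lies on chromosome 15 at 79995874-80014977 (minus), Pdgfc on chromosome 3 at 81036416-81214040 (plus) and Pdgfd on chromosome 9 at 6168584-6378850 (plus). Promoter windows of 300 bases around the RefSeq start (GRCm38.p6) are shown for Pdgfa, whose transcripts were found in every named cell class, and for Pdgfra and Pdgfd, whose transcripts came almost wholly from fibroblast-like cells. Capitals mark matches to a GC box (GGGCGG) or a TATA box (TATAAA), each searched on both strands. The windows are chr5:138994895-138995194 (minus strand) for Pdgfa, chr5:75152001-75152300 (plus) for Pdgfra and chr9:6168236-6168535 (plus) for Pdgfd.
Pdgfa: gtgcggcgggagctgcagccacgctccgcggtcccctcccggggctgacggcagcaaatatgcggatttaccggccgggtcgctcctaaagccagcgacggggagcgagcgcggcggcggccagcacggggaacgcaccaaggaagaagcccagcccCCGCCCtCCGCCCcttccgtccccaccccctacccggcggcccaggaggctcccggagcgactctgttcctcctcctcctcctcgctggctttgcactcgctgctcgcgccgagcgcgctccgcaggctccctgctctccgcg
Pdgfra: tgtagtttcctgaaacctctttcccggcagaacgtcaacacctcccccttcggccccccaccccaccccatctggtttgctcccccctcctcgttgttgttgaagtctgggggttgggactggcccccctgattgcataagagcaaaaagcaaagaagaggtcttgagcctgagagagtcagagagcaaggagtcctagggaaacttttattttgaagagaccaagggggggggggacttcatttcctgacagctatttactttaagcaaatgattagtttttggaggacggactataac
Pdgfd: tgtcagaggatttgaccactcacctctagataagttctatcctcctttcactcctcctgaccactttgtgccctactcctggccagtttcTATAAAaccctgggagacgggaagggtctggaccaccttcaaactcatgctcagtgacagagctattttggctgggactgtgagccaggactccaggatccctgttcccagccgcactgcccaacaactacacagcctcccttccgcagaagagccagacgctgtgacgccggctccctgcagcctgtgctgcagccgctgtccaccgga

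The Pdgfa window has 73.3% G and C and 37 CpG dinucleotides, with 2 GC boxes, and 94.5% of 32851 promoter windows have a lower G and C content. The Pdgfra window has 51% G and C, 5 CpG and no match to the GC box, the TATA box or the CCAAT box, and the Pdgfd window has 56.7%, 8 CpG and 1 TATA box. The windows of all genes had a median of 52.7% and 7 CpG. A GC box was found in 35.7%, a TATA box in 13.6% and a CCAAT box in 37.4% of them. These matches describe the letters only.

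After filtering and removal of likely doublets, 7436 neonatal, 8689 3 week and 8984 2 month cells remained, with median depths of 8280 to 11006 UMIs (unique molecular identifiers, each counting 1 captured transcript). Pairs of libraries shared 23 to 31 cell barcodes. Clusters were named from marker genes, with the 7 PDGF genes kept out of the clustering, and fibroblast-like cells were 85.2%, 62.6% and 53.2% of cells in the neonatal, 3 week and 2 month libraries. The cluster with all 9 pericyte markers detected (589 cells) was led by Rgs5, Tagln, Myh11 and Acta2, so it held smooth muscle genes beside pericyte genes and is called the Rgs5-led cluster. The endothelial-like cluster was led by the lymphatic genes Ccl21a, Mmrn1, Lyve1 and Flt4, and the blood vessel endothelium was not seen as a class of its own. Levels are given as CPM, the UMIs of a gene relative to all UMIs of the same cells, with exact 95% Poisson intervals that cover counting error only. They are given for a class or subtype in the libraries that held at least 20 of its cells.

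Keratinocyte-like cells held the largest share of Pdgfa UMIs of any class in every library, although they were a minority of cells. They made up 4.03% of neonatal, 16.9% of 3 week and 19.4% of 2 month cells but held 36.8%, 48.5% and 51.0% of the Pdgfa UMIs of those libraries. Fibroblast-like cells held 25.3%, 17.2% and 14.5%, and the Rgs5-led cluster held 13.98%, 7.37% and 8.93% from no more than 2.54% of cells. In CPM, which is relative to the UMIs of a class and not to its number of cells, the order was different. The Rgs5-led cluster had the highest Pdgfa CPM of every class in all 3 libraries. Its Pdgfa level was 350 CPM (319 to 383) in neonatal, 394 CPM (356 to 434) in 3 week and 428 CPM (388 to 470) in 2 month skin, against 14.7, 13.8 and 13.0 CPM in fibroblast-like cells.

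Keratinocyte-like cells had 158, 111 and 103 CPM of Pdgfa, and Schwann-like cells, the myelinating and supporting glia of skin nerves, had 253, 219 and 160 CPM. Endothelial-like cells had 108, 152 and 159 CPM, and skeletal muscle-like cells had 248, 129 and 121 CPM. Melanocyte-like cells had 189 CPM at 3 weeks and 228 CPM at 2 months, and sebaceous-like cells had 76.1 and 76.3 CPM. In none of these classes did the interval of any library reach down to the fibroblast-like level. Immune cells had lower levels, with 18.5, 29.5 and 13.7 CPM in macrophage-like cells, 8.04, 36.8 and 23.4 CPM in T or innate lymphoid-like cells and, at the later ages, 32.6 and 24.2 CPM in dendritic or Langerhans-like cells. At 3 weeks the intervals of all 3 lay above that of the fibroblast-like cells.

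Each class was tested against fibroblast-like cells with edgeR's quasi-likelihood test, with the library as a block and adjustment over 12819 genes. Not every class was tested in all 3 libraries, since a library with too few cells of a class gave no profile for it. The neonatal library gave none for melanocyte-like (14 cells), sebaceous-like (3 cells) and dendritic or Langerhans-like cells (0 cells). The 2 month library gave none for mast-like cells (16 cells). The tests of these classes rest on their remaining libraries. Since the libraries differ in age, the spread behind each p includes age, and the comparisons share the fibroblast-like cells. Pdgfa was higher in 7 of 11 classes, lower in none and not past the threshold in 4 (macrophage-like, mast-like, T or innate lymphoid-like, and dendritic or Langerhans-like cells). The differences were 4.72 ± 0.36 on the log2 scale in the Rgs5-led cluster (SE, adjusted p = 1.5e-09) and 3.03 ± 0.33 in keratinocyte-like cells (adjusted p = 6.1e-08). They were 3.56 ± 0.34 in Schwann-like, 3.58 ± 0.36 in melanocyte-like, 3.41 ± 0.35 in skeletal muscle-like, 3.00 ± 0.34 in endothelial-like and 2.35 ± 0.36 in sebaceous-like cells. Macrophage-like cells (0.48 ± 0.35, adjusted p = 0.30), mast-like cells (0.47 ± 0.53, adjusted p = 0.60), T or innate lymphoid-like cells (0.74 ± 0.35, adjusted p = 0.082) and dendritic or Langerhans-like cells (1.06 ± 0.44, adjusted p = 0.064) did not pass. The cell classes differ from fibroblasts in many genes, and this sets the background. The share of all genes called higher was 13.1% in the Rgs5-led, 24.1% in the keratinocyte-like, 13.3% in the Schwann-like, 12.1% in the melanocyte-like, 10.4% in the skeletal muscle-like, 14.3% in the endothelial-like and 23% in the sebaceous-like comparison, and genes that define the clusters are among them.

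**Figure D1:**
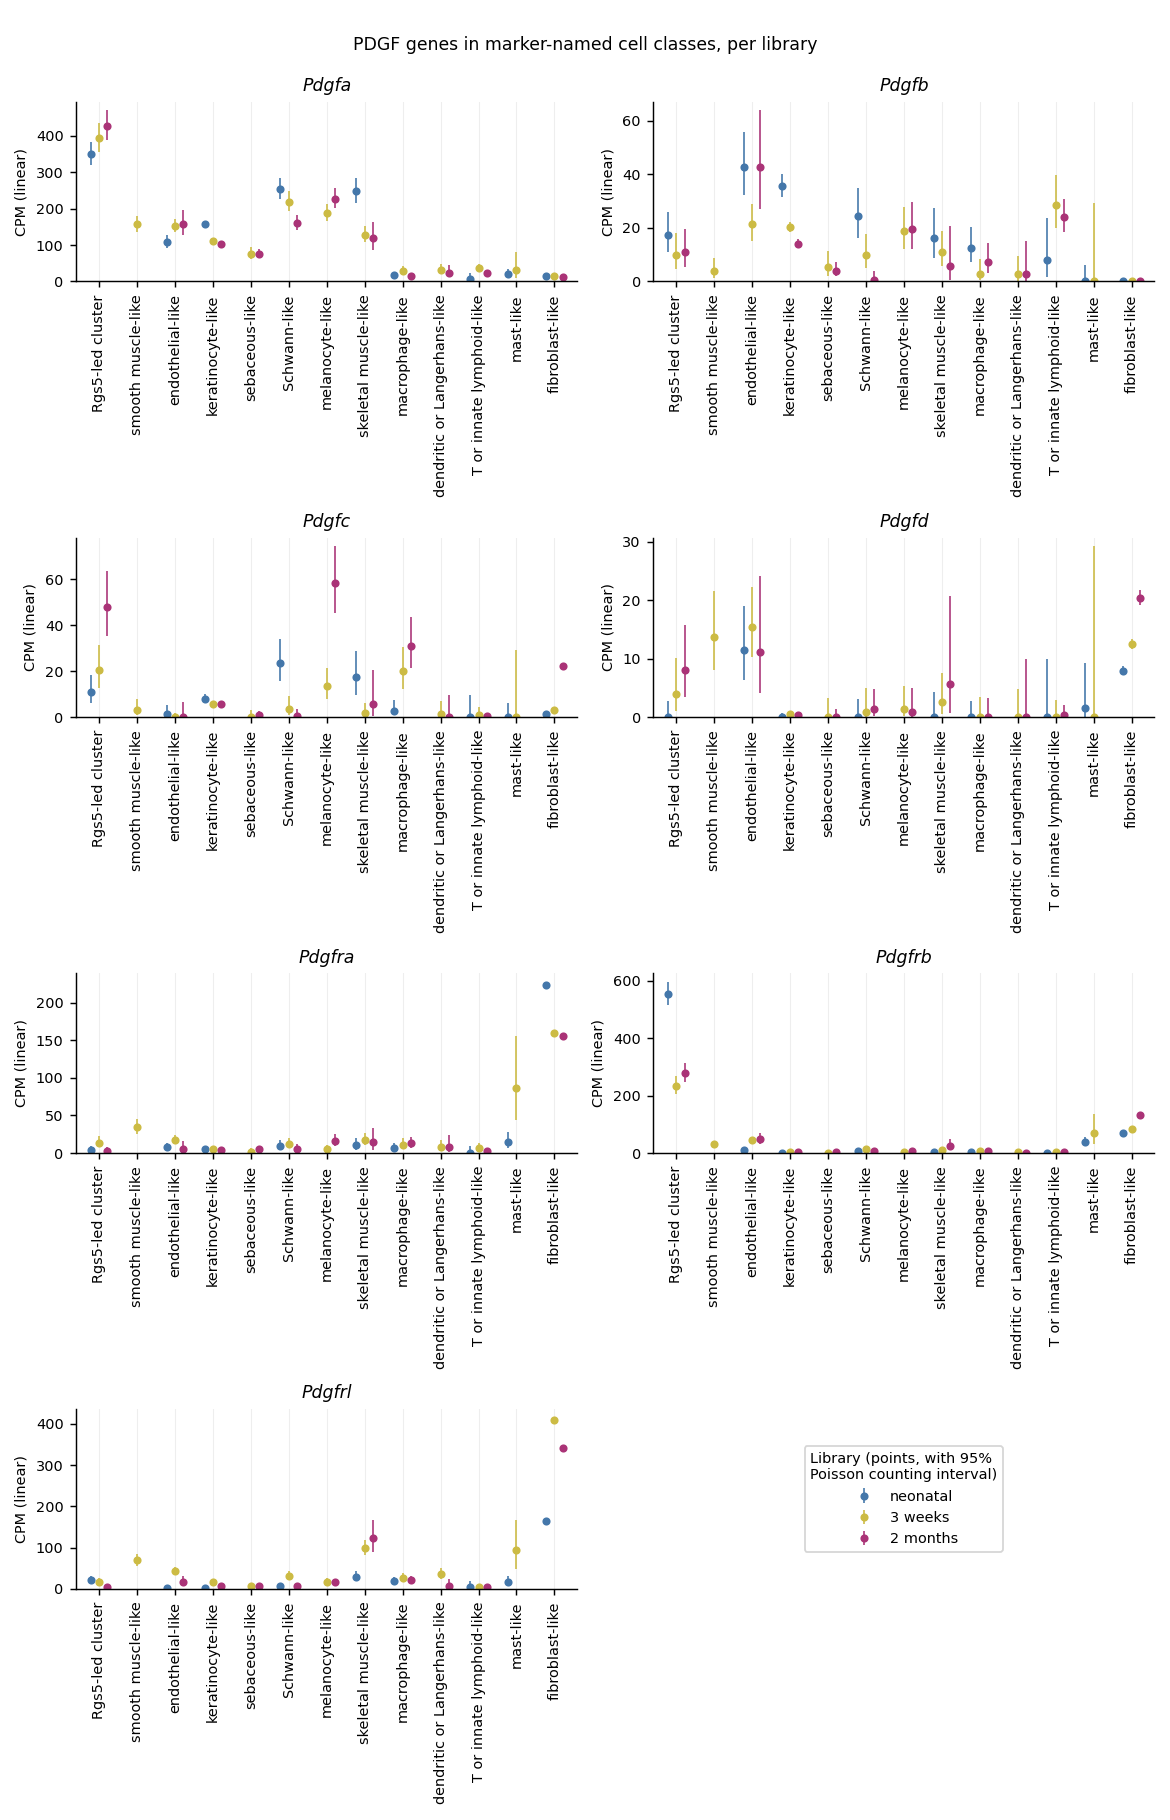
Levels of the 7 PDGF genes in CPM (linear vertical axes, each with its own range) in marker-named cell classes, with 1 point per library and bars for the exact 95% Poisson interval; classes with under 20 cells in a library are not drawn. Pdgfa lies between 350 and 428 CPM in the Rgs5-led cluster and between 13.0 and 14.7 CPM in fibroblast-like cells, while Pdgfra lies between 156 and 223 CPM in fibroblast-like cells and between 3.01 and 13.8 CPM in the Rgs5-led cluster.

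Within the epithelium Pdgfa followed the kind of keratinocyte. The cluster led by Krt17, Lhx2 and Sox9, transcription factors of hair follicle epithelium among them, had 324 CPM (305 to 345) in neonatal, 322 CPM (291 to 356) in 3 week and 282 CPM (235 to 336) in 2 month skin. The 2 clusters led by Krt5, Krt14 and Krt15, keratins of the basal layer, had 156 and 152 CPM at 3 weeks and 149 and 153 CPM at 2 months. The cluster led by Krt1, Krt77 and Krtdap, genes of the layers above it, had 71.4 and 90.1 CPM at these ages, and the cluster with Lor among its leading genes, a cornified envelope gene, had 19.4 and 10.7 CPM. A neonatal cluster led by Krt1 and Stfa3 had 34.6 CPM, and the cluster led by Cst6, Krt17 and Sprr1a had 30.6 CPM at 3 weeks and 54.6 CPM at 2 months. The follicle-like Krt17 cluster was 128 of 300 neonatal keratinocyte-like cells, 61 of 1472 at 3 weeks and 38 of 1745 at 2 months, and the part of this shift in the lower Pdgfa of the later epithelium was not tested.

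Pdgfb too had its largest share in the epithelium, and it was nearly missing from fibroblasts. Keratinocyte-like cells held 61.9%, 73.1% and 64.0% of its UMIs in the neonatal, 3 week and 2 month libraries. Endothelial-like cells held 12.5%, 6.07% and 4.41% from 0.511%, 1.32% and 0.523% of cells. Their level was 42.8 CPM (32.4 to 55.6) in neonatal, 21.3 CPM (15.2 to 29.01) in 3 week and 42.5 CPM (27.0 to 63.8) in 2 month skin, against 0.259, 0.164 and 0.151 CPM in fibroblast-like cells (15, 11 and 8 UMIs). Keratinocyte-like cells had 35.7, 20.4 and 14.2 CPM, T or innate lymphoid-like cells 8.04, 28.6 and 24.2 CPM, and the Rgs5-led cluster 17.2, 9.84 and 11.04 CPM.

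Pdgfb was higher than in fibroblast-like cells in 10 of 11 classes. The differences were 7.09 ± 0.60 (log2, SE) in endothelial-like (adjusted p = 4.8e-09), 6.84 ± 0.59 in T or innate lymphoid-like (adjusted p = 2.7e-09), 6.67 ± 0.57 in keratinocyte-like (adjusted p = 1.9e-09) and 5.87 ± 0.61 in Rgs5-led cells (adjusted p = 1.4e-07). With 8 to 15 UMIs in the fibroblast-like cells of a library, the sizes of these fold changes rest on few counts. Some of the other classes also had few Pdgfb UMIs. Dendritic or Langerhans-like cells had 2 at 3 weeks and 1 at 2 months, and Schwann-like cells had 1 at 2 months. The mast-like class had 0 Pdgfb UMIs in all 3 libraries (93, 72 and 16 cells), where 0 allows up to 5.02 CPM in neonatal skin. In macrophage-like, melanocyte-like and sebaceous-like cells the call was lost when cells were named 1 by 1 from markers rather than by cluster, with an adjusted p of 0.14, 0.91 and 0.10. The dendritic or Langerhans-like call held in 7 of 11 alternative settings and was lost without the 3 week library (adjusted p = 0.42). The background for calls in the higher direction was 22.9% of all genes in T or innate lymphoid-like, 19.6% in macrophage-like and 15.1% in dendritic or Langerhans-like cells.

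**Figure D2:**
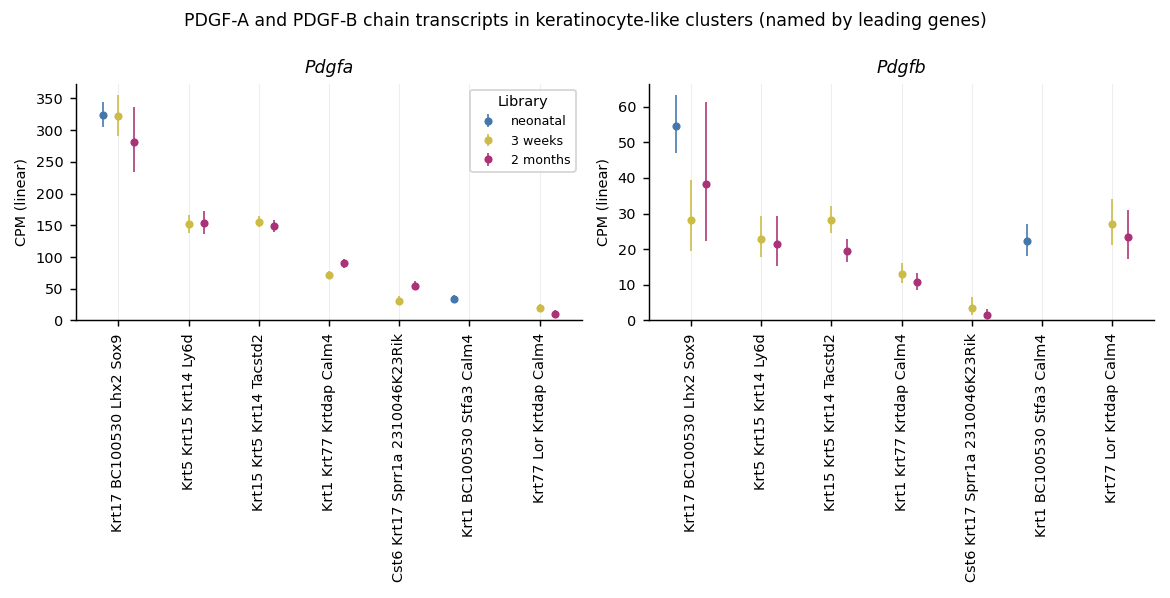
Pdgfa and Pdgfb in CPM (linear axes) in the 7 keratinocyte-like clusters, named by their leading genes, with 1 point per library holding at least 20 cells of the cluster and exact 95% Poisson intervals. Pdgfa is 282 to 324 CPM in the cluster led by Krt17, Lhx2 and Sox9 and 10.7 to 19.4 CPM in the one with Lor; Pdgfb is 23.4 to 27.0 CPM in that cluster and 28.1 to 54.7 CPM in the Krt17-led one.

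In the cluster with Lor, Pdgfb was not low in the way Pdgfa was. The Krt17-led cluster had 54.7, 28.1 and 38.3 CPM of Pdgfb at the 3 ages, and the cluster with Lor, which had the lowest Pdgfa, had 27.0 CPM at 3 weeks and 23.4 CPM at 2 months. The basal keratin clusters had 19.5 to 28.0 CPM. The intervals of the Lor and the basal clusters overlapped at both ages.

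Pdgfc and Pdgfd, the chains that need a protease, had their largest share in fibroblast-like cells. Fibroblast-like cells held 96.4%, 91.6% and 97.0% of Pdgfd UMIs in the neonatal, 3 week and 2 month libraries, and 39.8%, 49.4% and 78.7% of Pdgfc UMIs. These cells held 77.7%, 63.8% and 58.7% of all UMIs. Their share of Pdgfc was thus below their share of all transcripts in the neonatal and 3 week libraries and above it only at 2 months. Pdgfd was lower than in fibroblast-like cells in 9 of 11 classes, where 14.4% to 26.5% of all genes were called lower. In keratinocyte-like cells it had 1, 12 and 9 UMIs (0.128, 0.508 and 0.382 CPM), against 460, 843 and 1087 UMIs (7.96, 12.5 and 20.5 CPM) in fibroblast-like cells, a difference of -5.39 ± 0.60 (adjusted p = 3.0e-07, where 25.5% of all genes were called lower). Macrophage-like cells had no Pdgfd UMI in any library, and sebaceous-like cells had none either (21.8% and 25.1% of all genes were called lower in these classes). The endothelial-like cells were an exception, with 11.5, 15.4 and 11.1 CPM and a difference of -0.23 ± 0.51 from fibroblast-like cells (adjusted p = 0.79). The intervals of the endothelial-like and fibroblast-like levels overlapped in all 3 libraries. The Rgs5-led cluster had 0, 4 and 8 UMIs, and its lower level (-2.10 ± 0.59, adjusted p = 0.011) was not called without the 3 week library (adjusted p = 0.18). Without that library the Pdgfd calls were also lost in skeletal muscle-like (adjusted p = 0.18), melanocyte-like (0.12) and dendritic or Langerhans-like cells (0.13).

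Pdgfc was higher in no class and lower in 2 of 11, the sebaceous-like (-4.23 ± 1.69, adjusted p = 0.043, with 0 and 2 UMIs) and the T or innate lymphoid-like cells (-4.32 ± 1.63, adjusted p = 0.031, with 0, 1 and 1 UMIs). In these comparisons 25.1% and 26.5% of all genes were called lower. These calls held in 7 and 5 of 11 alternative settings, and without the 2 month library the adjusted p was 0.35 and 0.46. The Rgs5-led cluster had 11.2 CPM (6.27 to 18.5), 20.7 CPM (12.8 to 31.6) and 48.2 CPM (35.5 to 63.9), above the fibroblast-like intervals in all 3 libraries, and did not pass the test (1.62 ± 0.85, adjusted p = 0.17). Macrophage-like cells had 2.96, 19.99 and 31.1 CPM, and melanocyte-like cells had 13.5 CPM at 3 weeks and 58.5 CPM (45.3 to 74.5) at 2 months. Schwann-like cells ran the other way with 23.5, 3.58 and 0.678 CPM, and keratinocyte-like cells stayed between 5.84 and 8.09 CPM.

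The alpha receptor was a fibroblast transcript in these skins. Fibroblast-like cells held 98.7%, 95.8% and 97.6% of the Pdgfra UMIs, at 223 CPM (220 to 227), 159 CPM (156 to 162) and 156 CPM (153 to 159). Pdgfra was lower in 11 of 11 classes, from -2.60 ± 0.57 in mast-like cells (adjusted p = 0.0016) to -5.93 ± 0.55 in T or innate lymphoid-like cells (adjusted p = 5.3e-09). The share of all genes called lower ran from 12.2% in the mast-like to 26.5% in the T or innate lymphoid-like comparison. The mast-like call was lost without the neonatal library (adjusted p = 0.18). In classes with at least 20 cells in a library, the levels outside the fibroblasts were 0 to 17.1 CPM except in the 3 week smooth muscle-like cells (34.2 CPM), the 3 week mast-like cells (87.1 CPM from 11 UMIs) and the unnamed clusters. The 16 mast-like cells of the 2 month library held 2 Pdgfra UMIs. After each cell was thinned to 1500 UMIs, 29.6%, 21.9% and 22.1% of fibroblast-like cells held a Pdgfra UMI, against 0%, 1.53% and 0.11% of T or innate lymphoid-like cells, a class that should lack it. Without thinning the shares of fibroblast-like cells were 78.3%, 74.4% and 70.8%.

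The beta receptor (Pdgfrb, chromosome 18 at 61045150-61085061, plus strand) was shared between fibroblasts and the Rgs5-led cluster. The Rgs5-led cells had 554 CPM (515 to 596) in neonatal, 235 CPM (206 to 267) in 3 week and 278 CPM (246 to 313) in 2 month skin, against 69.9, 83.4 and 131 CPM in fibroblast-like cells. The levels of the cluster lay above those of fibroblast-like cells in every library, and the difference was 2.01 ± 0.44 (adjusted p = 0.0010). Without the 3 week library the adjusted p was 0.062. It was the only class of the 11 in which Pdgfrb was higher, and in 9 it was lower. Of all genes, 13.1% were called higher in the Rgs5-led comparison and 14.4% to 26.5% lower in those 9. By number of transcripts fibroblast-like cells were still the larger holder, with 82.9%, 90.8% and 93.5% of Pdgfrb UMIs, against 15.2%, 3.87% and 3.71% in the Rgs5-led cluster. Endothelial-like cells had 10.7, 44.2 and 48.1 CPM (-1.87 ± 0.46, adjusted p = 0.0029), and keratinocyte-like cells 1.41, 3.47 and 3.52 CPM.

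Pdgfrl (chromosome 8 at 40926212-40990785, plus strand) was a fibroblast transcript as well, with 98.2%, 95.8% and 97.8% of its UMIs in fibroblast-like cells and a lower level in 11 of 11 other classes. The highest level outside the fibroblasts among tested classes at 2 months was that of skeletal muscle-like cells, with 29.2, 99.03 and 124 CPM at the 3 ages, against 166, 410 and 342 CPM in fibroblast-like cells (-2.24 ± 0.49, adjusted p = 0.0016). Without the 3 week library the skeletal muscle-like and mast-like calls of Pdgfrl were lost (adjusted p = 0.10 and 0.056). The share of all genes called lower lay between 12.2% in the mast-like and 26.5% in the T or innate lymphoid-like comparison.

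The Rgs5-led cluster combined the highest Pdgfa level with the highest Pdgfrb level of the named classes. After thinning, 42.3%, 41.3% and 49.0% of its cells held a Pdgfa UMI and 44.4%, 24.5% and 38.0% a Pdgfrb UMI, while 1.06%, 1.09% and 0.48% held a Pdgfra UMI. Fibroblast-like cells held the receptors in a different mix. Of them 26.3%, 18.8% and 17.8% had Pdgfra alone, 6.85%, 9.12% and 13.6% Pdgfrb alone, and 3.28%, 3.08% and 4.24% both. Of the cells with a Pdgfra UMI, 11.1%, 14.1% and 19.2% also had Pdgfrb, against 9.72%, 11.7% and 17.5% of the cells without one. At this depth a cell with no UMI of a receptor may still express it, and the gap between the last sets of shares was not tested.

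The composition of the Rgs5-led cluster moved with age. The summed level of 9 smooth muscle markers was 13513, 31615 and 35964 CPM, and that of 9 pericyte markers 6436, 5602 and 3384 CPM. Kcnj8 and Abcc9, the subunits of a potassium channel of pericytes, were at 302 and 256 CPM in neonatal cells, 12.8 and 27.6 CPM at 3 weeks and 9.0 and 21.1 CPM at 2 months. Its Pdgfrb level at 2 months was 0.502 times the neonatal level (log2 -0.996, interval -1.200 to -0.79), and its Pdgfa level 1.22 times (log2 0.29, interval 0.10 to 0.48). The part of these marker genes in the age difference was not tested.

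Among fibroblast-like cells, 9 subtypes were named from markers in the single libraries, and 50.9%, 55.6% and 63.6% of the cells stayed in unnamed subclusters. The papillary-like name rests on marker score alone, as no papillary marker was among the leading genes of the papillary-like subclusters. In neonatal skin they were led by Grem1, Gm1673 and Chodl or by Entpd2 and Vstm2b. Those of the later libraries were led by Igfbp2, Grem1 and F13a1 (3 weeks) and by Igfbp2, Stc1 and F13a1 (2 months). Each subtype was tested against all other fibroblast-like cells of the same libraries. In this division Pdgfa was called higher in 2 of 9 subtypes, the dermal papilla-like and follicle-associated-like cells. Dermal papilla-like cells, the follicle's signalling centre, had 59.8 CPM (47.9 to 73.8) in neonatal and 68.1 CPM (53.2 to 85.9) in 3 week skin, against 13.5 and 13.0 CPM in the other fibroblast-like cells. Cells of the Coch, Crabp1 and Tnn pattern, called follicle-associated-like after their marker genes, had 42.1 CPM (25.4 to 65.8), 80.2 CPM (70.1 to 91.4) and 62.9 CPM (50.2 to 77.8), against 14.5, 10.9 and 11.8 CPM in the rest. The intervals did not overlap in any library, and the differences were 1.76 ± 0.36 (adjusted p = 0.0021) and 2.09 ± 0.28 (adjusted p = 0.0041). The background of genes called higher was 5.28% in dermal papilla-like and 3.62% in follicle-associated-like cells. Both calls were lost without the library block (adjusted p = 0.083 and 0.053). Dermal sheath-like cells, which also belong to the follicle, had 13.2, 27.1 and 24.0 CPM, against 14.7, 13.3 and 12.7 CPM in the rest, and did not pass (0.39 ± 0.27, adjusted p = 0.60).

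Pdgfa was low in the interstitial progenitor-like cells, which are named from Pi16 and Dpp4. They had 2.71, 1.60 and 0.93 CPM (6, 9 and 8 UMIs), against 15.1, 14.96 and 15.4 CPM in the other fibroblast-like cells. The difference was -3.32 ± 0.40 (adjusted p = 0.0087, with 7.74% of all genes called lower) and was called in 11 of 11 alternative settings. Adipogenic-like cells had similar values, described further on. Among the unnamed subclusters, the neonatal one led by Inhba, Tfap2c and Plcb1 had the highest Pdgfa of all 17 neonatal subclusters, 82.0 CPM. The 17 subclusters of the 3 week library spanned 1.60 to 82.0 CPM and the 16 of the 2 month library 0.93 to 79.4 CPM. Subclusters with under 20 cells are left out here and below.

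Pdgfd had another distribution over these subtypes than Pdgfa. Interstitial progenitor-like cells had 19.9 CPM (14.4 to 26.7), 34.4 CPM (29.7 to 39.6) and 67.0 CPM (61.6 to 72.7), against 7.48, 10.5 and 11.5 CPM in the other fibroblast-like cells. Their level was higher in all 3 libraries with intervals apart, by 1.92 ± 0.22 on the log2 scale (adjusted p = 0.0079, where 6.51% of genes were called higher). Without the library block the adjusted p was 0.064. At 2 months the interstitial progenitor-like cells joined subclusters of 760 and 123 cells. The smaller one had the highest Pdgfd of the subclusters of its library, 84.2 CPM, and was led by Dmkn, Sbsn and Krtdap, the last a keratinocyte marker. Follicle mesenchyme was almost without Pdgfd. Dermal papilla-like cells had 0 UMIs in both libraries, where 0 allows up to 2.06 and 2.88 CPM, against 8.16 and 12.7 CPM in the rest. Follicle-associated-like cells had 0, 1 and 1 UMIs, and dermal sheath-like cells, the contractile cup around the follicle, had 0, 3 and 0 UMIs. Pdgfd was called lower in all 3 of these subtypes and in nerve-associated-like cells. Without the library block the adjusted p was 0.078 in dermal papilla-like, 0.056 in follicle-associated-like and 0.13 in dermal sheath-like cells, and the nerve-associated-like call held in 6 of 9 alternative settings, with an adjusted p of up to 0.50. A setting among these, leaving out the neonatal library, repeats the main nerve-associated-like fit, since no such cells were named there. The backgrounds in the lower direction were 8.91% in dermal papilla-like, 6.88% in follicle-associated-like, 3.18% in dermal sheath-like and 5.92% in nerve-associated-like cells.

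Pdgfc had no subtype in which it was called higher. Interstitial progenitor-like cells had 2.26, 10.7 and 30.2 CPM of Pdgfc, against 1.53, 2.61 and 20.7 CPM in the rest (1.09 ± 0.39, adjusted p = 0.14). Follicle-associated-like cells had 22.2, 15.9 and 8.98 CPM, against 1.39, 2.73 and 22.6 CPM, so that they were above the rest at the first 2 ages and below it at 2 months. The difference over all libraries was 1.30 ± 0.95 (adjusted p = 0.46), and without the 2 month library it was 2.91 and passed the threshold. Dermal papilla-like cells had 3.44 CPM in neonatal and 28.8 CPM (19.4 to 41.1) in 3 week skin from 33 cells. Nerve-associated-like cells had no Pdgfc UMI in either library that held them, where 0 allows up to 7.70 and 6.62 CPM, against 3.31 and 22.4 CPM in the rest, and were called lower (adjusted p = 0.0015, and 0.32 without the library block). The highest Pdgfc of any subcluster was 80.3 CPM in a 2 month subcluster led by Pappa2 and Prlr. Its markers were nearest to those of the dermal papilla, with 7 detected, and it was left unnamed by the naming rule.

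**Figure D3:**
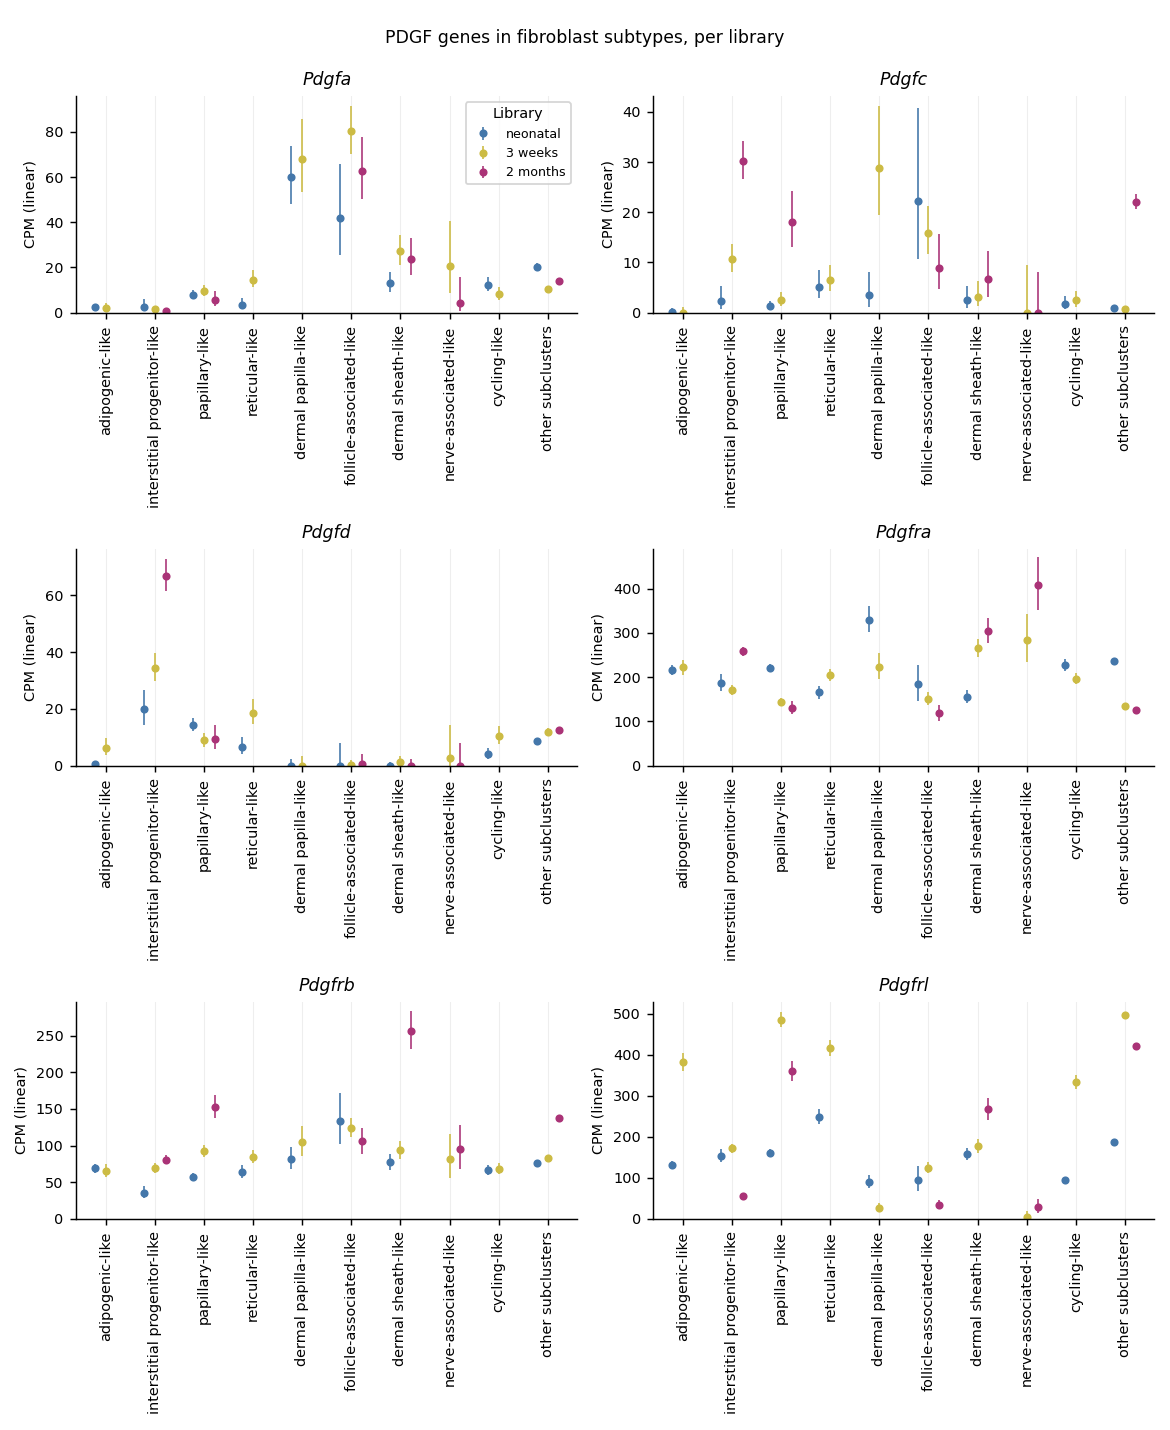
Levels of 6 PDGF genes in CPM (linear axes with their own ranges) in 9 named fibroblast subtypes and the remaining subclusters, with 1 point per library holding at least 20 cells and exact 95% Poisson intervals. Pdgfa is highest in dermal papilla-like (59.8 and 68.1 CPM) and follicle-associated-like cells (42.1 to 80.2 CPM), where Pdgfd is 0 to 0.75 CPM, and Pdgfd is highest in interstitial progenitor-like cells (19.9 to 67.0 CPM), where Pdgfa is 0.93 to 2.71 CPM.

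Both receptor chains were found in every fibroblast-like subcluster of at least 20 cells. Those of the 2 month library include a subcluster of 37 cells led by Rgs1, Cd7 and Cd3g, where Cd3g is a T or innate lymphoid marker. In the 17 neonatal, 17 3 week and 16 2 month subclusters Pdgfra was at 71.2 CPM or more and Pdgfrb at 35.7 CPM or more. Pdgfra was higher in 1 of 9 subtypes, the nerve-associated-like cells, with 285 CPM (234 to 343) at 3 weeks and 408 CPM (351 to 471) at 2 months, against 159 and 154 CPM in the rest (0.92 ± 0.28, adjusted p = 0.024, with 4.9% of genes called higher). Without the library block this call was lost (adjusted p = 0.13). Neonatal dermal papilla-like cells had 330 CPM (301 to 361), and 224 CPM at 3 weeks, with no difference called (0.04 ± 0.41, adjusted p = 0.97). Pdgfrb passed the threshold in none of the 9 subtypes by edgeR's quasi-likelihood test, and DESeq2 called it in none. At an unadjusted p under 0.05 it was 1 of 9, the interstitial progenitor-like cells, where Pdgfrb was at 35.7, 68.8 and 80.7 CPM, against 71.3, 84.7 and 141 CPM in the rest (-0.68 ± 0.19, adjusted p = 0.080). Its widest gap was in dermal sheath-like cells at 2 months, with 256 CPM (231 to 283), against 128 CPM in the rest, but the gap at the earlier ages was 77.2 against 69.6 CPM and 93.6 against 83.0 CPM (0.23 ± 0.26, adjusted p = 0.77). The highest Pdgfrb of any subcluster was 394 CPM in 64 cells of the 3 week library led by Tnc, Hapln1 and Chrm2, part of the follicle-associated-like cells. The 2 month subcluster with Chrm2, Tnn and Hapln1 among its leading genes was likewise the highest of its library, with 287 CPM.

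Pdgfrl differed between fibroblast subtypes as well. In nerve-associated-like cells it had 5.13 CPM at 3 weeks and 28.7 CPM at 2 months (2 and 13 UMIs), against 412 and 344 CPM in the other fibroblast-like cells, a difference of -4.67 ± 0.42 (adjusted p = 1.4e-10) that was called in 9 of 9 alternative settings. Leaving out the neonatal library is among these settings and repeats the main fit, since no such cells were named there. Pdgfrl was also lower in dermal papilla-like cells (89.4 and 26.9 CPM, -2.85 ± 0.64, adjusted p = 0.0051) and in follicle-associated-like cells (95.3, 125 and 34.4 CPM, -2.22 ± 0.48, adjusted p = 0.026), and both of these calls were lost without the library block (adjusted p = 0.15 and 0.16). Papillary-like cells had 161, 486 and 360 CPM and reticular-like cells 249 and 416 CPM, with no call for any of the PDGF genes in either subtype, where 1.51% and 2.76% of all genes were called higher and 3.67% and 2.78% lower. Cycling-like cells had 93.6 and 333 CPM, against 173 and 415 CPM (-0.78 ± 0.18, adjusted p = 0.051), and no PDGF gene was called in them, where 6.72% of genes were called higher and 4.53% lower. Interstitial progenitor-like cells had 154, 172 and 56.2 CPM, against 166, 431 and 397 CPM in the rest (-1.40 ± 0.60, adjusted p = 0.20). The 3 week and 2 month subclusters with the highest Pdgfrl, 653 and 807 CPM, both had Mup20, Ctla2a and Lgr5 among their leading genes.

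Adipogenic-like cells, named from Pparg, Fabp4, Cd36, Adipoq and other adipocyte genes, were found in the neonatal (488 cells) and 3 week libraries (209 cells). A further neonatal subcluster of 221 cells, led by Ccl11, Col18a1 and Agt, also scored highest for these markers (0.671, against 0.656 in the named 3 week subcluster). Its nerve-associated score was close (0.616), so it stayed unnamed and counts among the other fibroblast-like cells. The named adipogenic-like cells carried both receptors, neither of which passed the test, and had few UMIs of any ligand. Pdgfra was at 216 CPM (205 to 228) in neonatal and 222 CPM (206 to 239) in 3 week adipogenic-like cells, against 224 and 156 CPM in the other fibroblast-like cells (0.37 ± 0.20, adjusted p = 0.42). Pdgfrb was at 68.7 and 65.6 CPM, against 70.1 and 84.2 CPM (-0.05 ± 0.21, adjusted p = 0.93), and Pdgfrl at 132 and 382 CPM, against 170 and 411 CPM. Pdgfa was at 2.50 CPM (1.43 to 4.06) and 1.90 CPM (0.70 to 4.14) from 16 and 6 UMIs, against 16.2 and 14.4 CPM. The intervals were apart in both libraries, the difference was -2.62 ± 0.31, and its adjusted p of 0.053 missed the threshold. In the 8 alternative settings that p ran between 0.00026 and 0.53, and 4 of them made the call. A setting among the 8, leaving out the 2 month library, repeats the main fit, since no adipogenic-like cells were named there. Only 0.229% of genes were called higher and 0.554% lower in this comparison of 4 summed profiles. Pdgfc had 1 and 0 UMIs, and Pdgfd was at 0.78 and 6.34 CPM, against 8.85 and 12.8 CPM (-1.86 ± 0.58, adjusted p = 0.22).

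Adipogenic markers were also counted cell by cell. In neonatal skin a Pdgfra UMI was found after thinning in 29.9% of 5272 fibroblast-like cells with no marker UMI, 28.0% of 815 with 1 marker, 30.5% of 131 with 2 and 22.2% (12.7% to 34.5%) of 63 with 3 or more. At 3 weeks the shares were 21.7%, 22.4%, 30.8% and, in 6 cells, 33.3%. Pdgfrl was found in fewer of the neonatal cells with more markers, with 20.05%, 17.5%, 6.87% and 7.94%, and the intervals of the cells with no marker and with 2 did not overlap. At 3 weeks the Pdgfrl shares were 40.04%, 32.2%, 41.03% and, in 6 cells, 16.7%, so that the cells with 2 markers had no lower share there. A separate neonatal cluster of 29 cells led by Car3, Cfd, Adipoq and Fabp4, genes of differentiated adipocytes, stayed unnamed, since 4 of its leading genes were adipogenic markers and none was a marker of the fibroblast class it scored highest for. It had 10.2 CPM of Pdgfra (4.40 to 20.1, 8 UMIs), 3.82 CPM of Pdgfrb and 1.27 CPM of Pdgfrl, each with an interval below that of the adipogenic-like cells, and 12.7 CPM of Pdgfa (10 UMIs). It held 6 cells at 3 weeks and 4 at 2 months, so its values rest on 1 library.

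**Figure D4:**
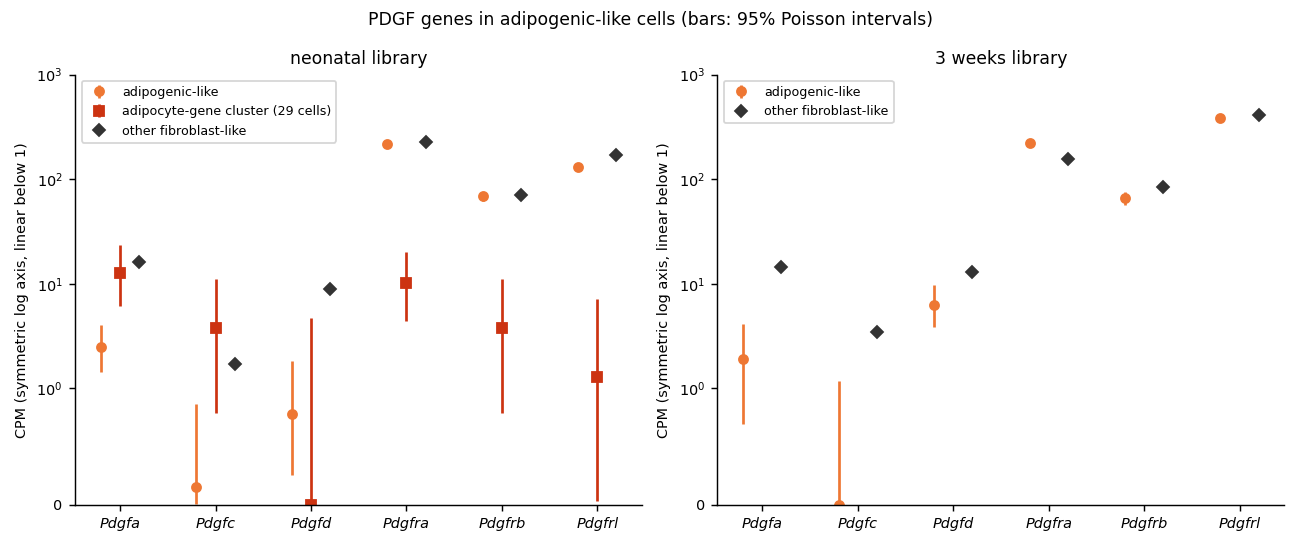
Levels of 6 PDGF genes in CPM (symmetric log axis, linear below 1) in adipogenic-like cells, a neonatal cluster of adipocyte genes and the other fibroblast-like cells, with exact 95% Poisson intervals, in the neonatal (left) and 3 week (right) libraries. Pdgfra is 216 and 222 CPM in adipogenic-like cells, 10.2 CPM in the adipocyte-gene cluster and 224 and 156 CPM in the other fibroblast-like cells.

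Across the ages the fibroblast-like cells differed most in Pdgfc. Pdgfc was at 1.56 CPM (1.25 to 1.91, 90 UMIs) in neonatal, 3.29 CPM (2.87 to 3.75, 221 UMIs) in 3 week and 22.2 CPM (21.0 to 23.5, 1182 UMIs) in 2 month fibroblast-like cells. The 2 month level was 6.77 times the 3 week level and 14.3 times the neonatal level (log2 3.84, interval 3.53 to 4.16). Pdgfd was at 7.96, 12.5 and 20.5 CPM, 2.57 times higher at 2 months than in neonatal cells (log2 1.36, interval 1.204 to 1.523). Pdgfa was at 14.7, 13.8 and 13.0 CPM, a log2 ratio of -0.17 between 2 months and neonatal (-0.32 to -0.02) whose sign turned under 4 other settings (up to 0.88 with a stricter marker threshold), and Pdgfb had too few UMIs for a ratio to be read.

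Both receptor chains had smaller ratios than Pdgfc. Pdgfrb was at 69.9, 83.4 and 131 CPM (1.88 times at 2 months over neonatal, log2 0.91) and Pdgfra at 223, 159 and 156 CPM (0.698 times, log2 -0.52). Pdgfrl was at 166, 410 and 342 CPM, 2.47 times at 3 weeks over neonatal and 0.834 times at 2 months over 3 weeks. By a rule of 2-fold and at least 10 CPM in 1 of the 2 libraries, 3 of 6 PDGF genes that could be counted were past the fold at 2 months over neonatal, all higher (Pdgfc, Pdgfd and Pdgfrl), where 10.8% of 8673 genes were higher and 17% lower. At 3 weeks over neonatal it was 1 of 5 (Pdgfrl), where 8.11% of genes were higher, and at 2 months over 3 weeks 1 of 6 (Pdgfc), where 3.45% were higher and 3.2% lower. These 3 ratios share libraries. The median gene had a log2 ratio of -0.21 at 3 weeks over neonatal, -0.07 at 2 months over 3 weeks and -0.30 at 2 months over neonatal, and the ratios above are given without removing it. The summed keratinocyte markers in fibroblast-like cells were 82, 174 and 143 CPM and the summed endothelial markers 19, 8 and 4 CPM, and their part in these ratios was not tested.

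Of the 4 named fibroblast subtypes present at all 3 ages, the papillary-like and interstitial progenitor-like cells had 2 month Pdgfc intervals above those of both earlier libraries. Papillary-like cells had 1.40, 2.52 and 18.1 CPM and interstitial progenitor-like cells 2.26, 10.7 and 30.2 CPM, and the unnamed subclusters had 0.874, 0.674 and 22.1 CPM. The leading genes of the papillary-like subclusters were not the same in the neonatal and later libraries, so their levels need not follow 1 kind of cell. In dermal sheath-like cells (2.56, 3.19 and 6.65 CPM, from 7, 8 and 10 UMIs) the intervals of the 3 libraries overlapped. Follicle-associated-like cells, at 22.2, 15.9 and 8.98 CPM, had their lowest level at 2 months, with intervals that also overlapped. Outside the fibroblasts the Rgs5-led and macrophage-like cells also had their highest Pdgfc at 2 months, while keratinocyte-like and Schwann-like cells had theirs in neonatal skin. For Pdgfd, interstitial progenitor-like cells had 19.9, 34.4 and 67.0 CPM, while papillary-like cells had 14.4, 8.89 and 9.45 CPM. Interstitial progenitor-like cells were 2.54%, 7.07% and 18.5% of fibroblast-like cells, and the other fibroblast-like cells had 7.48, 10.5 and 11.5 CPM of Pdgfd.

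**Figure D5:**
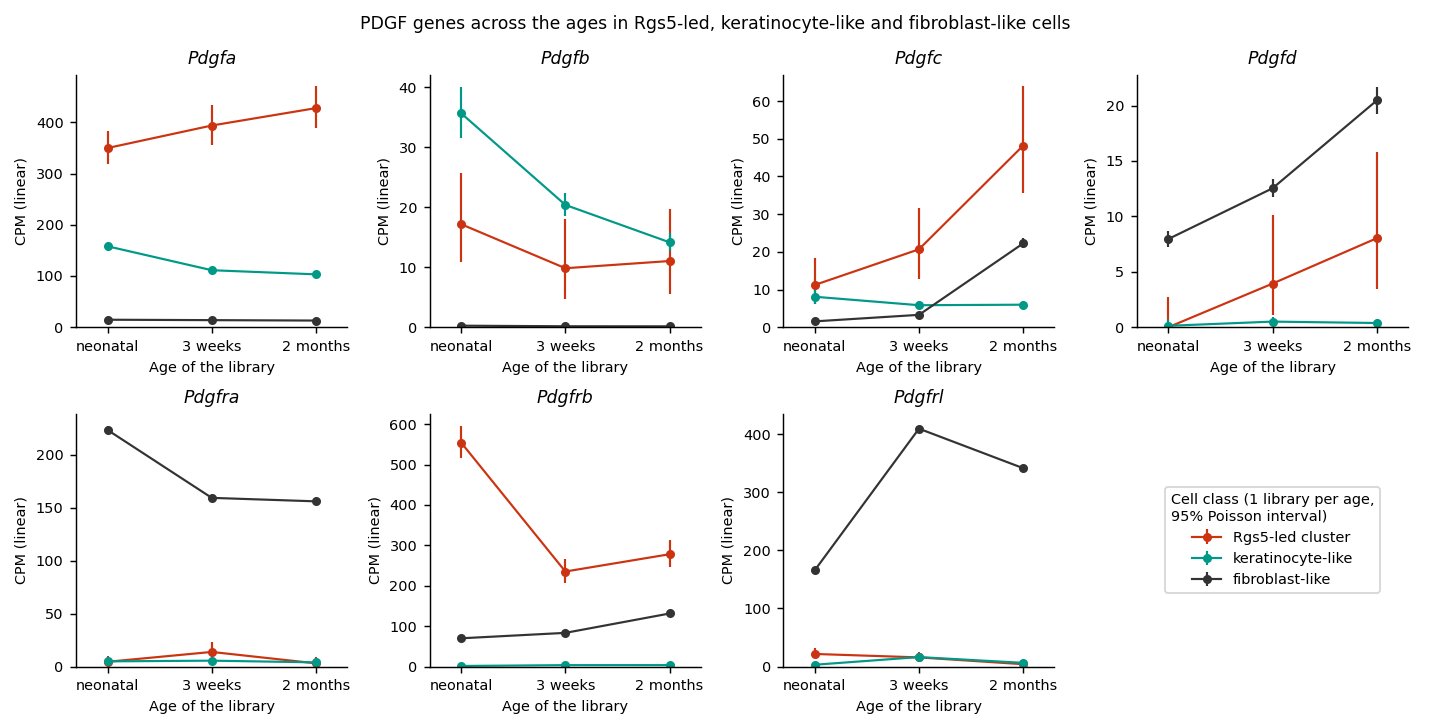
Levels of the 7 PDGF genes in CPM (linear axes with their own ranges) by the age of the library in Rgs5-led, keratinocyte-like and fibroblast-like cells, with 1 library per age and exact 95% Poisson intervals. Pdgfc in fibroblast-like cells is 1.56, 3.29 and 22.2 CPM at neonatal, 3 weeks and 2 months, and Pdgfrb in the Rgs5-led cluster is 554, 235 and 278 CPM.

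In keratinocyte-like cells both main ligands were lower at the later ages. Pdgfa at 2 months was 0.653 times the neonatal level (log2 -0.61, interval -0.71 to -0.51) and Pdgfb 0.397 times (log2 -1.33, interval -1.57 to -1.10). Within the Krt17-led cluster, which held cells of all ages, the Pdgfa intervals of the 3 libraries overlapped.

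The other genes of the pathway were counted by lists. Of the ligand-processing proteases, 4 of 6 could be counted across ages in fibroblast-like cells, and at 2 months over neonatal 1 was higher and 1 lower past 2-fold, where 10.8% of all genes were higher and 17% lower. The same shares apply to the next lists, and 1 gene of 8 or of 11 is near them. Plat, the tissue plasminogen activator that cleaves PDGF-C, was at 200 CPM at 2 months and 58.4 CPM in neonatal cells, and Pcsk5, a proprotein convertase, at 24.2 and 63.4 CPM. Of 5 co-receptors and ligand-binding proteins 2 were higher and 1 was lower. Sparc, a matrix protein that binds PDGF-B, was at 59079 CPM at 2 months and 9424 CPM in neonatal cells, and Lrp1, an endocytic receptor that associates with the beta receptor, at 602 and 216 CPM. Thbs1 was at 37.6 and 362 CPM. Of 11 signal transducers 1 was past 2-fold (Pik3r1, 191 and 82.7 CPM), of 8 negative regulators 1 (Spry1, lower, 70.7 and 144 CPM), and of 6 early response genes 3, all higher (Fos, Egr1 and Ccl2). Of the other class III receptor kinases, Csf1r was at 48.3 CPM at 2 months and 0.81 CPM in neonatal cells. The medians of these lists ran from -0.41 in the negative regulators to 0.72 in the early response genes on the log2 scale, besides Csf1r alone, against -0.30 for all genes.

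In the interstitial progenitor-like cells, which had the most Pdgfd of the named subtypes, 3 of 5 ligand-processing proteases were higher and none lower, where 6.51% of all genes were called higher and 7.74% lower. They were Plau, urokinase, a known activator of PDGF-D (3.85, adjusted p = 0.0046), Plat (3.28, adjusted p = 0.0088) and Pcsk6 (2.56, adjusted p = 0.021), and the list's median was 2.56 against -0.06 for all genes. Of 9 negative regulators 2 were higher, with Ptprj, a receptor phosphatase, at 3.55 (adjusted p = 0.0022), and 3 were lower. In dermal papilla-like cells 3 of 6 proteases were lower (Pcsk6, Plat and Pcsk5), and in follicle-associated-like cells 3 of 5 (Plau, Pcsk6 and Plat), where 8.91% and 6.88% of all genes were called lower. Nerve-associated-like cells had 4 of 9 negative regulators higher and none lower, where 4.9% of all genes were called higher and 5.92% lower. These were the feedback genes Spry1 (2.03, adjusted p = 1.1e-06), Spry2 (1.23, adjusted p = 0.0017), Spry4 (3.02, adjusted p = 2.7e-08) and Dusp6 (3.00, adjusted p = 5.1e-10), and the list's median was 0.81 against -0.14 for all genes. In adipogenic-like cells no gene of any list passed the threshold.

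Among the classes, the Rgs5-led cluster had 3 of 9 negative regulators higher (Spry4 by 3.21, Ptpn1 by 1.83 and Ptpn2 by 1.06 on the log2 scale) and none lower, with a list median of 0.97 against -0.17 for all genes. It had 2 of 6 proteases lower (Pcsk5 and Pcsk6) and none higher. In this comparison 13.1% of all genes were called higher and 14.8% lower. Keratinocyte-like cells had St14, the membrane protease matriptase, higher by 7.27 (adjusted p = 2.0e-11) and 3 other proteases lower. They also had 4 of 5 co-receptors and ligand-binding proteins lower (Nrp1, Nrp2, Lrp1 and Sparc), where 24.1% of all genes were called higher and 25.5% lower. Endothelial-like cells had 4 of 9 negative regulators higher (Cbl, Rasa1, Spry4 and Dusp6), where 14.3% of all genes were called higher.

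The genes whose levels followed each PDGF gene most closely were sought over 33 profiles, 1 for each class and library, among 13390 genes on the scale of log2(CPM + 10). The profiles share libraries and depth, so Pearson's r is a description. Pdgfra was most like Dpep1 (r = 0.94), Pamr1 and Cpxm1, Pdgfrl like Srpx (r = 0.94), Lum and Dpt, and Pdgfd like Galnt15 (r = 0.89), Ackr3 and Ntn1. Pdgfrb was most like Il6 (r = 0.91), Hrct1 and Uap1, all with their highest level in the Rgs5-led cluster. Pdgfa was most like Ktn1 (r = 0.87), Cd151 and Bcam. The likeness was lowest for Pdgfb (Zdhhc2, r = 0.74) and Pdgfc (Bmp2, r = 0.68).

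An antisense gene, 6330403L08Rik, overlaps Pdgfa and had 419 UMIs in the kept cells against 13545 for Pdgfa, and Gm42802 overlaps Pdgfra with 14 UMIs against 32750. Whether the counting used strand is not stated, so reads of these pairs cannot be told apart with certainty.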

How the data were processed

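The deposited matrices hold raw UMI counts per gene and cell barcode, made by the authors with tools that the submitters' processing notes give as Cell Ranger 3.0.2 and Seurat 2.0, on mm10; strand handling is not given in the sources used here. Barcodes with at least 300 genes, 500 UMIs and at most 10% mitochondrial UMIs were kept. Doublets were scored with scanpy 1.11.5, and where its own threshold marked under 0.5% (the neonatal library, 0.0253%) the highest 6.00% of scores were removed. Cells were clustered (2000 variable genes, 30 components, resolution 1, leidenalg 0.10.2) without the 7 PDGF genes, and clusters were named from marker lists. The cluster called Rgs5-led scored highest for pericyte markers, but 3 of its 10 leading genes were smooth muscle markers and 1 a pericyte marker, so it carries its leading gene's name. A rule for naming subclusters was tightened after the data were seen. The genes, lists and markers were all chosen with earlier results of these data known.

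Counts were summed per library and class (at least 20 cells) and tested with edgeR 4.0.16 (quasi-likelihood, R 4.3.3, library as block, Benjamini-Hochberg, threshold 0.05), with DESeq2 1.42.0 as an alternative. The labels do not say how many animals a library holds, so p-values measure only the spread between libraries that also differ in age. Pairing of groups comes from the library itself, since both sides of each contrast are cells of the same libraries. In data simulated on the Rgs5-led comparison with 12819 genes, 20% of 2-fold and 84% of 4-fold changes were recovered (100 each), with 3 false calls. Apart from the changed genes, the simulation gave all classes and libraries the same mean profile and the same spread. The real profiles differ in many genes and in age, so these rates do not describe the real comparison. Intervals (exact Poisson, or Clopper-Pearson for shares, both 95%) and the limit of 3 counts for a count of 0 cover counting error only. Of each pathway list up to 4 called genes with the largest fold are named, and for likeness the 3 genes with the highest Pearson correlation. Alternatives covered normalization, low count filter, library block, naming per cell, marker threshold, doublets, mitochondrial limit, thinning depth and leaving out each library. Where a left-out library held under 20 cells of a subtype, that setting repeats the subtype's main fit.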

Additional observations from a re-analysis of the deposited data

Results flagged for a closer look

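In 4 cases the level at 2 months over neonatal went one way in a class and the other way in fibroblast-like cells, with both intervals clear of 0. With 1 library per age the difference was not tested in any of them. Pdgfa had a log2 ratio of 0.56 (0.16 to 0.96) in endothelial-like cells and 0.29 (0.10 to 0.48) in the Rgs5-led cluster, against -0.17 in fibroblast-like cells, a value that changes sign with the scaling. Pdgfrb had a log2 ratio of -0.996 (-1.200 to -0.79) in the Rgs5-led cluster, against 0.91 in fibroblast-like cells. Pdgfrl had a log2 ratio of -2.43 (-4.40 to -0.92) in the Rgs5-led cluster, from 4 UMIs at 2 months and 29 in neonatal cells, against 1.04 in fibroblast-like cells.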

How the results depend on the processing

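Each class or subtype was compared with fibroblast-like cells of the same libraries, so the library is a block by design. Without that replicate block the genes called fell to 115 in cycling-like (1567 with it), 33 in dermal papilla-like (1967), 1 in dermal sheath-like (561), 43 in follicle-associated-like (1392), 593 in interstitial progenitor-like (1904) and 482 in nerve-associated-like cells (1435). They fell to 0 in adipogenic-like (106), papillary-like (700) and reticular-like cells (759) by edgeR's quasi-likelihood test, where 830, 1128 and 1114 genes had an unadjusted p under 0.05. DESeq2 with the block called 736 in adipogenic-like, 980 in dermal sheath-like, 795 in nerve-associated-like and 1697 in papillary-like cells. With no filter on low counts the counts were 1232 in adipogenic-like, 2780 in cycling-like and 1793 in reticular-like cells, and with RLE size factors 269 in adipogenic-like cells. With cells named 1 by 1 they were 1650 in melanocyte-like (3394), 2281 in Rgs5-led (3571), 2824 in cycling-like, 1202 in dermal sheath-like, 1052 in interstitial progenitor-like and 864 in nerve-associated-like cells. A stricter marker threshold gave 193 in adipogenic-like, 795 in cycling-like and 21 in papillary-like cells, and keeping doublet calls gave 434 in adipogenic-like, 367 in dermal sheath-like and 155 in papillary-like cells. At most 5% mitochondrial UMIs gave 2040 in Rgs5-led, 0 in adipogenic-like (1647 at an unadjusted p under 0.05), 2624 in follicle-associated-like and 451 in reticular-like cells. Under a 1.5-fold rule the genes past 2-fold, 3 weeks over neonatal in fibroblast-like cells, 1664 in number, became 3551; the genes past 2-fold, 2 months over 3 weeks in fibroblast-like cells, became 1461 (534), and the genes past 2-fold, 2 months over neonatal in fibroblast-like cells, 4412 (2411). The causes were not tested.

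Leaving out each library gave 1212 to 5209 genes in dendritic or Langerhans-like, 1356 to 4480 in endothelial-like, 3275 to 7493 in keratinocyte-like, 2770 to 5383 in macrophage-like, 957 to 2093 in mast-like, 516 to 4976 in melanocyte-like, 1076 to 4584 in Rgs5-led, 1332 to 4905 in Schwann-like, 2493 to 7247 in sebaceous-like, 585 to 3965 in skeletal muscle-like and 3682 to 7205 in T or innate lymphoid-like cells. It gave 352 to 2052 in dermal sheath-like, 745 to 2234 in follicle-associated-like, 915 to 2360 in interstitial progenitor-like and 96 to 2850 in papillary-like cells.

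For the PDGF genes, 795 values from class fits stayed on their side of the threshold, 29 became weaker, 14 stronger and 2 reversed; of those from subtype fits 478 stayed, 15 became weaker and 17 stronger. The 478 include settings that left out a library not used for the subtype, which repeat the main fit. The Pdgfa ratio of 2 months over neonatal in fibroblast-like cells (-0.17) was 0.035 without the 50 most abundant genes, 0.11 with TMM scaling, 0.88 with the stricter marker threshold and 0.062 with at most 5% mitochondrial UMIs. Pdgfb in melanocyte-like cells was -3.38 with cells named 1 by 1, and Pdgfc in Schwann-like cells, 0.00 over all libraries, was -2.81 without the neonatal and 2.08 without the 2 months library. Shares of cells with a UMI moved with the thinning depth in 39 values and stayed in 3, and Pdgfb in single subtypes rests on too few UMIs to be read at this depth.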
